A study of Mus musculus with 40 samples.

Results

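The genes described here were 38 components and targets of the TGF-β and BMP pathway, taken by mouse gene symbol from a count table of 55487 genes. They comprised 6 ligand genes, 7 BMP and activin receptors, 8 Smads, 5 intracellular and 6 extracellular regulators, and 6 target genes. All 38 symbols were found in the table, and each gene was followed through 40 libraries, with the TGF-β2 groups taken first.

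Ligands of the TGF-β family bind pairs of type I and type II serine/threonine kinase receptors, which phosphorylate receptor Smads. TGF-βs and activins act mainly through *Smad2* and *Smad3*, BMPs through *Smad1*, *Smad5* and *Smad9*, and both arms share *Smad4*, while *Smad6* and *Smad7* are inhibitory. In the nervous system the family is known for roles in dorsoventral patterning, in the glial fate of progenitors and in the astrocyte reaction to injury.

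The study asked how inflammatory mediators alter astrocytes and the motor neurons that grow on them. Mouse embryonic stem cells carrying eGFP under the Hb9 promoter were differentiated into ES-motor neurons and, over 3 passages and 5 days of forskolin, into ES-astrocytes. ES-astrocytes were stimulated for 24 h, sorted ES-motor neurons were plated on top without removal of the medium, and after 24 h of co-culture both cell types were separated by FACS. Polyadenylated cytosolic RNA from about 200 cells per sample was sequenced, with 4 biological replicates, each from a separate vial, in each of 10 groups.

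The 5 treatments were an unstimulated control, TGF-β2 at 5 ng/ml, IL-1α at 3 ng/ml with TNF-α at 30 ng/ml, C1Q at 400 ng/ml with C5 at 500 ng/ml, and IL-1β at 5 ng/ml with IL-6 at 10 ng/ml. All groups, controls included, came from the same reporter line, and the astrocyte medium contained serum. The authors state that such serum is high in TGF-β from the start, so the controls may not have been free of it. Because the medium stayed in place, ES-motor neurons could meet the added ligand directly as well as the ES-astrocytes treated with it, a small risk in the authors' view, with any remainder likely negligible because such mediators are short-lived. Control and IL-1α with TNF-α libraries carried the index of plate 1, and the other 3 treatments that of plate 2, so plate and stimulus cannot be told apart for TGF-β2 against control.

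Depth differed widely between libraries. Total counts ran from 1510823 to 16054290 in ES-astrocytes, with a median of 4670241.5. In ES-motor neurons they ran from 6557 to 19717324, with a median of 1213482.0. A count of 3 equalled 0.23 to 2.04 CPM, the unit of level used throughout (reads of a gene relative to its library's adjusted total), in ES-astrocyte libraries and to 0.153 to 203 CPM in ES-motor neuron libraries. Such limits, and the bounds below that allow 3 counts, cover counting error only, since the reads were PCR copies without molecular identifiers.

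Some libraries stood apart from the rest. The total of 9 ES-motor neuron libraries lay under 20% of the median library: all 4 with IL-1α and TNF-α, replicates B and D with IL-1β and IL-6, replicate A with C1Q and C5, replicate A with TGF-β2, and control replicate C. The C1Q and C5 replicate A held 6557 counts in all. Among ES-astrocytes, where none was that shallow, control replicate A had low values of several abundant members, with *Skil* at 31.9 CPM, *Bmpr2* at 3.54 and *Acvr2a* at 2.04. The other 3 control replicates ranged from 2045 to 3440, from 166 to 268 and from 33.2 to 76.7 CPM for these genes.

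Cell type labels were compared with marker genes. In ES-astrocytes, 6 of 12 astrocyte markers were called higher than in ES-motor neurons, among them *Fabp7* (mean 1430 against 24.5 CPM), *Slc1a2* (128 against 18.2), *Cd44* (122 against 2.15), *Slc1a3* (35.5 against 1.18) and *Gja1* (62.3 against 0.163). *Sox9* was called higher in ES-motor neurons. *Gfap*, *Aqp4* and *Aldh1l1* had no count in any of the 20 ES-astrocyte libraries. The progenitor genes were called higher in ES-astrocytes for 5 of 7, led by *Top2a* at 418 CPM, and the mesenchyme genes for 5 of 8, led by *Acta2* at 266 and *Dcn* at 221 CPM. The authors report GFAP, AQP4 and GLT-1 as protein in such cultures.

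ES-motor neurons carried their label more plainly. Of 8 motor neuron markers, 7 were called higher in them, with *Mnx1*, the gene of the reporter's promoter, at 1055 against 3.43 CPM. Of 8 general neuron genes 4 were called higher, and *Stmn2* averaged 3161 CPM there against 974 in ES-astrocytes. That list summed to 7371 CPM in ES-motor neurons and 2035 in ES-astrocytes, where the astrocyte list summed to 1870, against 313 in ES-motor neurons. Lists for the remaining cell types summed, in ES-astrocytes and ES-motor neurons, as follows: oligodendrocyte lineage 5.4 and 8.77 CPM over 6 genes, microglia 2.42 and 4.2 over 5, endothelium 0.924 and 0 over 4, pluripotent cells 0.296 and 0.00891 over 4. *Ptprc*, *Aif1*, *Cdh5* and *Pou5f1* were at 0 throughout, but other genes of these lists were not. *Csf1r* of the microglia list was found in 10 ES-astrocyte and 13 ES-motor neuron libraries, at means of 2.37 and 4.2 CPM. *Nanog* of the pluripotent list was found in 13 and 2 (0.296 and 0.00574 CPM), and *Kdr* of the endothelium list in 3 and 0 (0.857 and 0 CPM).

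In ES-astrocytes 11 members had counts in all 20 libraries and 31 in at least 10. In ES-motor neurons 2 members, *Id2* and *Skil*, were found in all 20 libraries and 21 in at least 10, while *Tgfb1*, *Tgfb3* and *Bmp4* had no count in any. Per kilobase of exon, the highest mean levels in ES-astrocytes were those of *Id2* (252 CPM per kb), *Skil* (185) and *Id3* (105), followed by *Id1* (26.1), *Serpine2* (19.3) and *Smad4* (11.3). In ES-motor neurons the order began with *Id2* (317 CPM per kb), *Skil* (165), *Id3* (43.2) and *Id4* (14.6).

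In ES-astrocytes the type II receptors *Bmpr2*, *Acvr2a* and *Acvr2b* averaged 8.88, 7.46 and 7.39 CPM per kb and the type I BMP receptor *Bmpr1a* 7.36, whereas *Bmpr1b* averaged 0.0531. In ES-motor neurons these means were 10.7, 7.18, 3.09, 5.6 and 0.000858. *Smad1*, a BMP mediator, reached 5.85 and 5.79 CPM per kb in the respective cell types. The TGF-β and activin mediator *Smad3* was detected in 6 ES-astrocyte libraries and 2 ES-motor neuron libraries, *Smad9* in 1 and 3, and the inhibitory *Smad6* in 3 and 2. Of the receptors for TGF-β itself, which are not members, *Tgfbr1* was measurable throughout the control ES-astrocytes (48.1, 133, 176 and 21.3 CPM), but the ligand-binding *Tgfbr2* had counts in 2 of the 40 libraries. Both of those were ES-astrocytes given C1Q and C5, at 1.88 and 4.77 CPM.

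**Figure D1:**
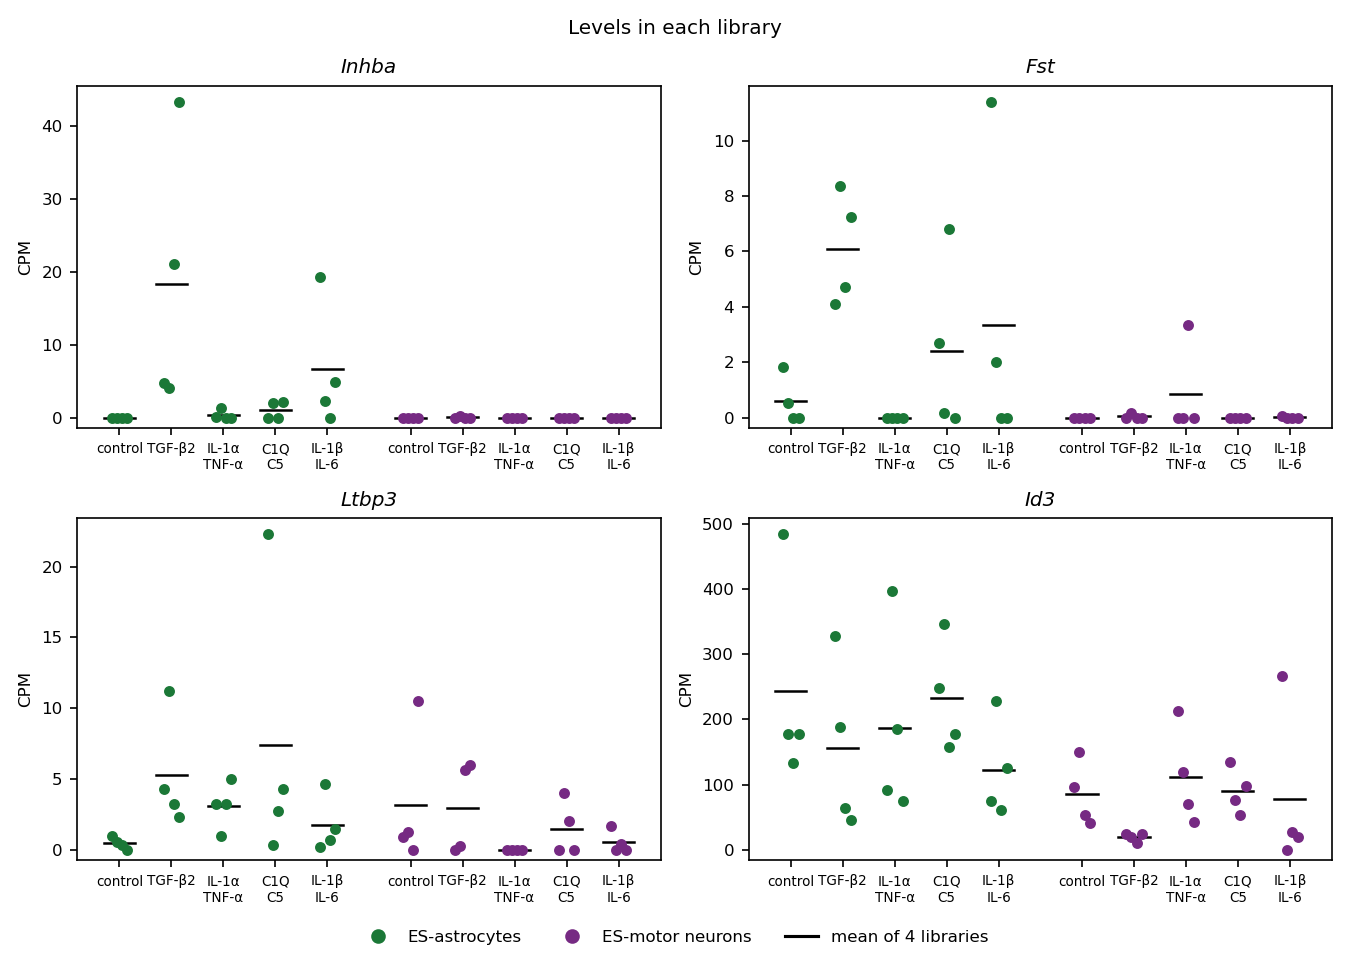
Levels of *Inhba*, *Fst*, *Ltbp3* and *Id3* in CPM (vertical axis, linear) in every library, by cell type and treatment, with a point for each library and a line at the mean of 4. *Inhba* is at 0 in the 4 control ES-astrocyte libraries and between 4.09 and 43.3 CPM in the 4 with TGF-β2, and *Id3* in ES-motor neurons is lower in the 4 TGF-β2 libraries than in the 4 controls.

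The first comparison asked what TGF-β2 did to pathway genes in ES-astrocytes, against unstimulated cells. *Inhba*, which encodes the βA subunit of activins, stood out among the ligands. No count of it was found in control replicates A to D, and TGF-β2 replicates A to D had 4.71, 4.09, 21 and 43.3 CPM. Every TGF-β2 library thus lay above every control, with replicates C and D well above A and B. Summed over the groups, 308 counts stood against 0, at least 134-fold higher when 3 counts are allowed for the control group. TGF-β2 replicate D held 185 of the 308, and without it the bound was 66.2-fold. Counts of *Inhba* also occurred with every other stimulus. Against the same controls the bounds were 42.3-fold with IL-1β and IL-6, 17.4-fold with C1Q and C5 and 2.39-fold with IL-1α and TNF-α. Without replicate A the bound with IL-1β and IL-6 was 10.2-fold. Here and in all later results from bulk samples, more or fewer cells with a transcript and more or less RNA per cell cannot be told apart.

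Among extracellular regulators, *Fst*, which encodes the activin-binding protein follistatin, had 1.82, 0.543, 0 and 0 CPM in control replicates A to D and 4.1, 8.37, 4.7 and 7.25 CPM with TGF-β2. *Ltbp3*, whose product binds latent TGF-β in the matrix, had 0.964, 0.543, 0.365 and 0 CPM in controls and 4.3, 11.2, 3.25 and 2.34 CPM with TGF-β2. For both genes the lowest TGF-β2 library was above the highest control library. The means were 6.11 ± 2.04 against 0.591 ± 0.859 CPM for *Fst* and 5.27 ± 4.03 against 0.468 ± 0.401 CPM for *Ltbp3* (SD, n = 4).

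By edgeR, 28 of the 38 members were tested and 0 were called at an adjusted p of at most 0.05 with a log2 fold change over 1 in size. Here and below, genes given as tested were tested by edgeR where no tool is named. The share called among all 10794 genes tested was 0%. At an unadjusted p under 0.05 there were 2 members, *Inhba* and *Ltbp3*, and 136 genes in all. *Inhba* had a fitted log2 fold change of 9.89 (SE 2.08, unadjusted p = 0.00169, adjusted p = 1 by edgeR), which depends on the prior count and is no bound, and it passed the filter on low counts through its TGF-β2 libraries alone. The values were 3.47 for *Ltbp3* (SE 1.42, unadjusted p = 0.0334, adjusted p = 1 by edgeR) and 3.33 for *Fst* (SE 1.56, unadjusted p = 0.0575, adjusted p = 1 by edgeR).

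DESeq2 called 1 of 35 members, *Inhba*, with a log2 fold change of 9.36 (SE 1.60, adjusted p = 8.06e-06), and 58 genes in all. By DESeq2 4 members and 798 of 12549 genes had an unadjusted p under 0.05. Over all alternatives the adjusted p of *Inhba* ran from 8.06e-06 to 1 and its log2 fold change from 9.09 to 10.27. Groups did not overlap, with TGF-β2 higher, for 3 of 28 tested members (*Inhba*, *Ltbp3* and *Fst*) and 1.32% of all tested genes. That count is a description only. In *Inhba* and *Ltbp3* no control library reached the limit of the filter (1.8 CPM) and in *Fst* 1 did, so their TGF-β2 libraries brought all 3 into the test. In the lower direction 0 members were, by the same criterion, against 0.963% of all tested genes. Without control replicate A the fitted changes were 9.80, 4.06 and 4.80 for *Inhba*, *Ltbp3* and *Fst*.

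No ligand was called by edgeR, and none but *Inhba* by DESeq2. *Tgfb2*, the gene of the ligand supplied, had 17.5, 25.7, 55.9 and 23.7 CPM in control replicates A to D and 4.3, 10.8, 0 and 39.5 CPM with TGF-β2. The groups overlapped, since TGF-β2 replicate D was above 3 of the controls. Its log2 fold change was -1.13 (SE 1.25, unadjusted p = 0.386, adjusted p = 1 by edgeR), and ran from -2.53 to -0.66 with a library left out. *Tgfb3* and *Bmp7* had log2 fold changes of -0.13 and -0.58. *Bmp4* was too rare to be tested by edgeR, with 37 counts in TGF-β2 replicate A and none in the other libraries of either group. *Tgfb1* had 1 count in the controls and 2 with TGF-β2.

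Of 7 receptor genes 5 were tested, and their log2 fold changes ran from -0.23 for *Acvr1b* to 0.59 for *Bmpr1a*. *Tgfbr1* had 77.9, 73.2, 127 and 104 CPM with TGF-β2, a log2 fold change of 0.06 (unadjusted p = 0.925 by edgeR), within the range of the controls. Among Smads 5 of 8 were tested. The shared *Smad4* had 48.3, 29.9, 9.13 and 40.6 CPM in controls and 47.1, 58.3, 54.6 and 23.4 CPM with TGF-β2. The groups overlapped, with a log2 fold change of 0.58 (SE 0.64, unadjusted p = 0.385, adjusted p = 1 by edgeR). *Smad3* was at 0 in all 4 controls and at 2.66 and 12.9 CPM in TGF-β2 replicates A and B, at 0 in C and D. That was 146 counts against 0, at least 63.5-fold higher over the group with 3 counts allowed for the controls. Replicate B held 133 of the 146, and without it the bound was 10.5-fold. Counts of *Smad3* also occurred with every other stimulus, at bounds of 12.3-fold with C1Q and C5, 5.18-fold with IL-1β and IL-6 and 4.3-fold with IL-1α and TNF-α. Without C1Q and C5 replicate C the first of these was 2.95-fold. The bound with IL-1β and IL-6 rested on the 13 counts of replicate B alone. That with IL-1α and TNF-α rested on the 9 counts of replicate C alone. With C1Q and C5 replicate C had 14.3 CPM, above any TGF-β2 library, and the mean was 3.81 CPM, against 3.9 with TGF-β2. By edgeR *Smad3* was not tested against control.

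*Smad7*, an inhibitory Smad and early TGF-β target, had 0, 1.09, 2.56 and 44.6 CPM in control replicates A to D and 8.61, 8.27, 21.7 and 5.38 CPM with TGF-β2. All 4 TGF-β2 libraries lay above control replicates A to C and below control replicate D. Its log2 fold change was -0.09 (SE 1.66, unadjusted p = 0.96, adjusted p = 1 by edgeR), and 3.23 without control replicate D. *Skil*, which encodes the Smad co-repressor SnoN, had 31.9, 3440, 2045 and 2947 CPM in controls and 835, 1823, 2366 and 3029 CPM with TGF-β2. Control replicate A was the lowest and control replicate B the highest of the 8 libraries, and the log2 fold change was -0.03 (SE 0.92, unadjusted p = 0.973, adjusted p = 1 by edgeR). The other intracellular regulators tested had log2 fold changes of 0.39 for *Ski*, 0.21 for the ubiquitin ligase gene *Smurf2* and 0.90 for the co-repressor gene *Tgif1*.

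None of the target genes separated the groups. *Serpine2*, a serine protease inhibitor, had 292, 44.6, 223 and 270 CPM in control replicates A to D and 234, 120, 91.9 and 155 CPM with TGF-β2. Control replicate B was the lowest of the 8 libraries and the other 3 controls were mostly higher than TGF-β2 libraries. Its log2 fold change was -0.41 (SE 0.54, unadjusted p = 0.471, adjusted p = 1 by edgeR). *Tgfbi*, a matrix gene named for its induction by TGF-β, had 1 count in control replicate D (0.171 CPM) and 0 in the other controls and in all 4 TGF-β2 libraries. It was not tested by edgeR.

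The Id genes encode inhibitors of basic helix-loop-helix factors and are classical BMP targets. *Id1* had 29.6, 30.7, 17.5 and 27.4 CPM in controls and 30.1, 12.2, 51.7 and 26.2 CPM with TGF-β2, a log2 fold change of 0.24 (SE 0.66, unadjusted p = 0.72, adjusted p = 1 by edgeR). *Id3* had 484, 178, 134 and 178 CPM in controls and 328, 189, 63.6 and 45.2 CPM with TGF-β2. TGF-β2 replicates C and D were below every control and A and B above 3 of them. The log2 fold change of *Id3* was -0.57 (SE 0.65, unadjusted p = 0.405, adjusted p = 1 by edgeR), and -0.02 without control replicate A. *Id2* and *Id4* had log2 fold changes of 0.12 and 0.10.

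By role, the median log2 fold change was 0.56 for extracellular regulators, over 5 tested of 6, and -0.36 for ligands, over 4 of 6. TGF-β2 libraries brought *Ltbp3*, *Fst*, *Thbs1*, *Inhba*, *Smad2*, *Smad7* and *Ski* into the test, and controls *Tgfb2* and *Tgif1*. The medians by role therefore do not rank the roles. Receptors had 0.29, Smads 0.18, intracellular regulators 0.30 and targets 0.10. Over the 28 tested members the median was 0.19, with 17 values above 0 and 11 below, beside -0.06 over all tested genes. Members brought in by a single group bear on these values too. Here and below, medians and counts above or below 0 describe the tested members only. Further pathway genes were looked at through a list of 52, of which 27 were tested, 0 were called and 0 had an unadjusted p under 0.05 by edgeR, with a median of 0.04. The smallest p belonged to *Itgb8* (2.70), an integrin subunit that activates latent TGF-β, *Zfyve16* (-2.32) and *Fstl1* (-0.86).

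DESeq2, whose filter is wider, called 1 of 42 further pathway genes, with 3 at an unadjusted p under 0.05. This was *Chrd*, which encodes the BMP antagonist chordin, and which was named here after its values were seen. *Chrd* was at 0 in all 4 control ES-astrocyte libraries and at 0.205, 4.09, 18.1 and 16.6 CPM in TGF-β2 replicates A to D. Every TGF-β2 library was above every control, although replicate A only just. Its fitted log2 fold change by DESeq2 was 8.45 (SE 1.92, adjusted p = 0.00541), which is no bound, and edgeR's filter left it out. With C1Q and C5 it had 7.42, 2.22, 0 and 27.4 CPM, with counts in 3 of 4 libraries there too.

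A second list held 33 genes known to respond to TGF-β, of which 19 were tested, 0 were called and 0 had an unadjusted p under 0.05 by edgeR, with a median log2 fold change of 0.12. DESeq2 called 0 of 29, with 4 at an unadjusted p under 0.05. *Fn1*, the fibronectin gene, had 34.5, 5.7, 101 and 26.9 CPM in control replicates A to D and 73, 161, 166 and 92.9 CPM with TGF-β2. Control replicate C was above the lowest TGF-β2 libraries and the other 3 controls were below all 4. Its log2 fold change was 1.60 (SE 0.74, unadjusted p = 0.0541, adjusted p = 1 by edgeR). *Gata2* (-1.31) and *Vcan* (1.03) followed. Marker lists beside these results had summed levels of 879 ± 199 CPM with TGF-β2 against 913 ± 462 in controls for mesenchyme, 461 ± 134 against 682 ± 240 for progenitors and 1408 ± 78.9 against 2232 ± 1111 for astrocytes (SD, n = 4). The part of progenitor and astrocyte content in the results was not tested.

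**Figure D2:**
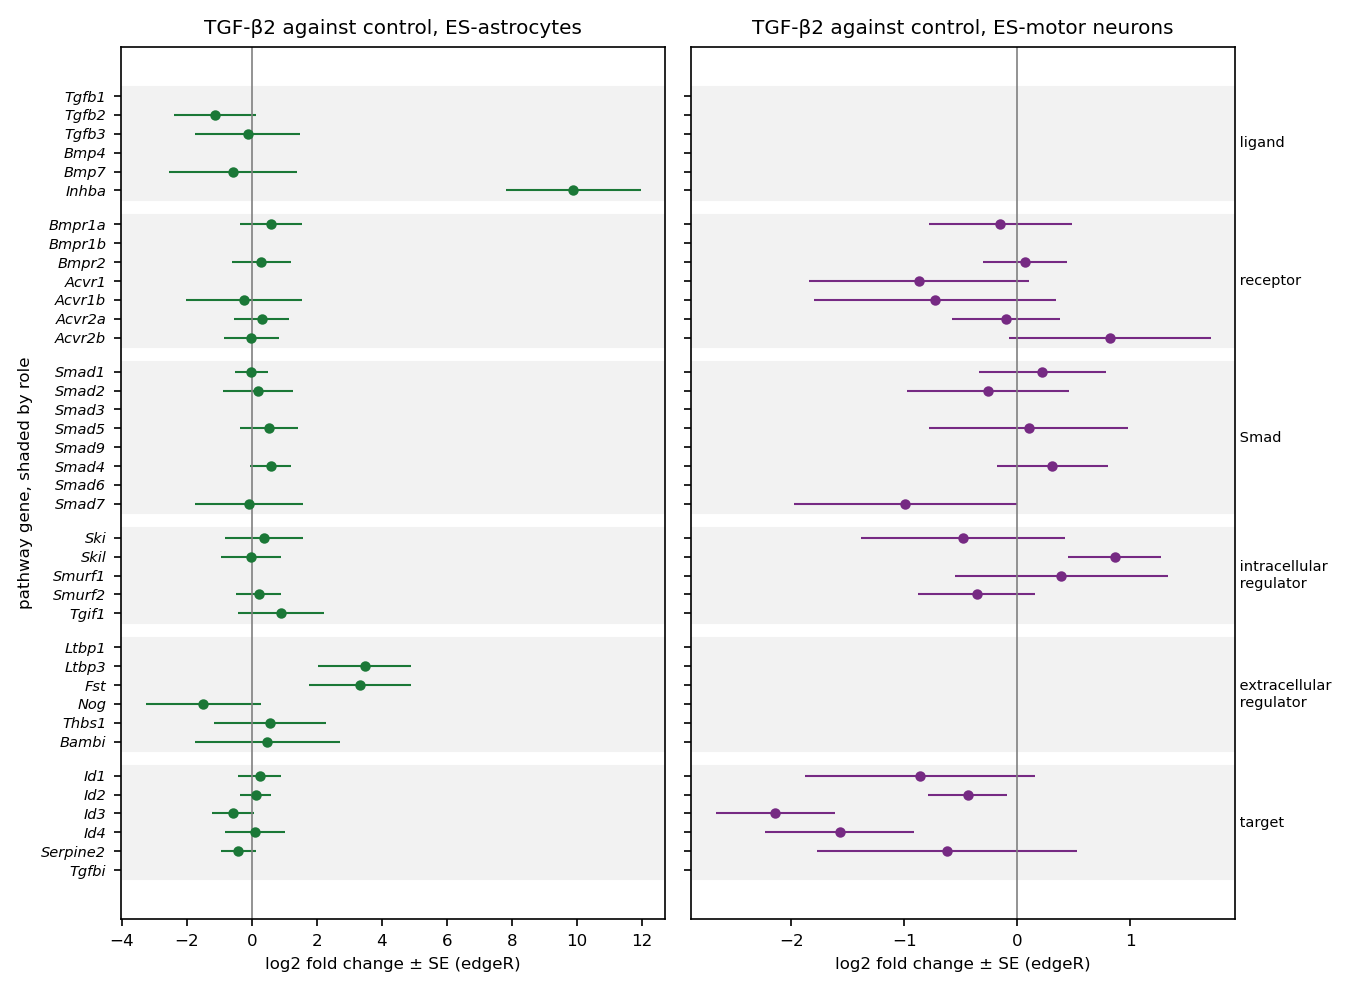
Log2 fold changes of TGF-β2 against control (horizontal axis, edgeR, bars for the SE) for each tested member, ordered by role, with a panel and a scale of its own for either cell type. In ES-astrocytes *Inhba*, *Ltbp3* and *Fst* have the highest values (9.89, 3.47 and 3.33), and in ES-motor neurons the 5 tested targets are all below 0.

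The second comparison concerned ES-motor neurons grown on TGF-β2 treated ES-astrocytes, in the same medium. Here *Id3* and *Id4* had the smallest p among members. *Id3* had 96, 150, 53.9 and 41.5 CPM in control replicates A to D and 24.9, 19.8, 11.2 and 24.9 CPM with TGF-β2. All 4 TGF-β2 libraries were below all 4 controls, at means of 20.2 ± 6.43 against 85.5 ± 49.2 CPM (SD, n = 4). *Id4* had 86, 46.8, 135 and 54.9 CPM in controls and 78.7, 24.9, 8.43 and 12 CPM with TGF-β2. There TGF-β2 replicate A, a shallow library, lay among the controls and the other 3 below them.

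By edgeR 20 members were tested and 0 were called, beside 0.0126% of the 7947 genes tested, which was 1 gene and no member. At an unadjusted p under 0.05 there were 2 members, *Id3* and *Id4*, and 221 genes in all. *Id3* had a log2 fold change of -2.14 (SE 0.53, unadjusted p = 0.000698, adjusted p = 0.614 by edgeR) and *Id4* of -1.57 (SE 0.66, unadjusted p = 0.0271, adjusted p = 0.999 by edgeR). DESeq2 called 1 of 32 members, *Id3*, at -2.12 (SE 0.53, adjusted p = 0.0438), and 19 genes in all. By DESeq2 5 members and 547 of 10771 genes had an unadjusted p under 0.05. Over the alternatives the adjusted p of *Id3* ran from 0.0438 to 1 and its log2 fold change from -2.38 to -1.72.

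*Id3* was the 1 tested member whose groups did not overlap with TGF-β2 lower, where 1.4% of all tested genes were so, and 0 members were higher by that criterion, against 1.17%. Without the shallow libraries its log2 fold change was -2.36. The difference between cell types in the response of *Id3*, the interaction, was -1.54 (SE 0.85, unadjusted p = 0.0853 by edgeR).

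The other 3 targets tested also had fitted values below 0. *Id2* had 1278, 1223, 573 and 758 CPM in controls and 953, 635, 816 and 426 CPM with TGF-β2, a log2 fold change of -0.44 (SE 0.35, unadjusted p = 0.228). *Id1* had 29, 37.4, 0 and 1.91 CPM in controls and 4.14, 14.1, 14.8 and 4.29 CPM with TGF-β2, a change of -0.86 (SE 1.02, unadjusted p = 0.407). Controls A and B were high and C and D low for *Id1*, with the TGF-β2 libraries between them. *Serpine2* had 12.7, 15.3, 0 and 15.3 CPM in controls and 8.29, 17.6, 0 and 3.43 CPM with TGF-β2, a change of -0.62 (SE 1.15, unadjusted p = 0.594), and the groups overlapped. All of these had an adjusted p of 0.999 by edgeR. *Tgfbi* was at 0 in all 8 libraries. The median over the 5 tested targets was -0.86, and over the 20 tested members -0.31, with 7 values above 0 and 13 below, beside 0.00 over all tested genes.

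Neither of the inhibitory genes *Skil* and *Smad7* was called. *Skil* had 2396, 891, 1101 and 1862 CPM in control replicates A to D and 4885, 1505, 3153 and 1688 CPM with TGF-β2. TGF-β2 replicates A and C were above all controls and B and D within their range. The log2 fold change was 0.86 (SE 0.41, unadjusted p = 0.0523, adjusted p = 0.999 by edgeR), and 0.30 without the shallow libraries. *Smad7* had 11.8, 19, 7.7 and 7.16 CPM in controls and 8.29, 9.61, 2.81 and 3.43 CPM with TGF-β2. Its groups overlapped, and its log2 fold change was -0.99 (SE 0.99, unadjusted p = 0.332, adjusted p = 0.999 by edgeR). *Bambi*, a pseudoreceptor, was at 0 in all 4 TGF-β2 libraries and had 0, 8.24, 3.85 and 0 CPM in controls. Control replicate B held 161 of the 162 control counts, and *Bambi* was not tested by edgeR.

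None of the tested receptors and Smads was called by edgeR or DESeq2, and 0 had an unadjusted p under 0.05 by edgeR. The 6 tested receptors ran from -0.87 for *Acvr1* to 0.82 for *Acvr2b*, and the 5 tested Smads had a median of 0.10, with *Smad4* at 0.31 and *Smad1* at 0.22. No ligand and no extracellular regulator had enough counts in ES-motor neurons to be tested by edgeR. *Tgfb2* had 1 count in control replicate A (0.906 CPM) and 9 counts in TGF-β2 replicate A (37.3 CPM), a shallow library, with 0 in the other 6. *Thbs1* had 4 counts (16.6 CPM) in the same library, 33 counts (2.83 CPM) in TGF-β2 replicate B, and 1 count in the controls. The mesenchyme markers summed to 11.5 ± 8.81 CPM in ES-motor neurons with TGF-β2 and 1.35 ± 1.52 in controls, and astrocyte markers to 435 ± 209 and 329 ± 179 CPM (SD, n = 4). *Sox9*, called higher in ES-motor neurons than in ES-astrocytes, had means of 361 and 290 CPM within the astrocyte sums. The part of these markers in the *Tgfb2* and *Thbs1* counts was not tested.

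*Inhba* had 3 counts in TGF-β2 replicate B (0.257 CPM) and none in any other of the 20 ES-motor neuron libraries. Of the 52 further pathway genes 21 were tested and 0 called by edgeR, with 0 at an unadjusted p under 0.05 and a median of 0.02, and DESeq2 called 0 of 35 with 0 under 0.05. Of the 33 response genes 4 were tested and 0 called by edgeR, with 0 at an unadjusted p under 0.05 and a median of -0.20, and DESeq2 called 0 of 15 with 1 under 0.05.

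Whether the response differed between cell types was asked by the interaction of TGF-β2 with the cell type, taken as ES-motor neurons minus ES-astrocytes. Among members the smallest p was that of *Tgfb2* itself, whose value turned on a single library. With all libraries its value was 6.75 on the log2 scale (SE 3.10, unadjusted p = 0.0418, adjusted p = 1 by edgeR). Without TGF-β2 replicate A of the ES-motor neurons, which held the 9 counts, it was -1.77, so no direction can be given. By edgeR 29 members were tested, 0 were called, beside 0% of 11967 genes, and 1 had an unadjusted p under 0.05. DESeq2 called 0 of 37, with 2 at an unadjusted p under 0.05. The median over tested members was -0.47, beside 0.02 over all tested genes, and all 5 tested targets were below 0. Of the further pathway genes 31 were tested and 0 called by edgeR, with 2 at an unadjusted p under 0.05, *Chrd* and *Fstl3*, and DESeq2 called 0 of 43 with 3 under 0.05. Of the response genes 18 were tested and 0 called by edgeR, with 1 under 0.05, *Fn1* (unadjusted p = 0.00218, adjusted p = 1 by edgeR), and DESeq2 called 0 of 29 with 2 under 0.05. In ES-motor neurons *Fn1* had 66 counts in control replicate B (3.38 CPM) and none in the other 3 controls or with TGF-β2, so its interaction rests on that library there. Over all genes 442 of 11967 had an unadjusted p under 0.05 by edgeR.

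The next comparison asked whether TGF-β2 differed from the other 3 stimuli in ES-astrocytes, without use of the controls. *Inhba* again had the smallest p. It had 0.0767, 1.32, 0 and 0 CPM with IL-1α and TNF-α, 0, 2.05, 0 and 2.16 CPM with C1Q and C5, and 19.3, 2.22, 0 and 4.91 CPM with IL-1β and IL-6. The TGF-β2 libraries lay above all of the former 2 groups and overlapped with IL-1β and IL-6, whose replicates A and D were above TGF-β2 replicates A and B. *Fst* was at 0 in all 4 libraries with IL-1α and TNF-α, at 2.7, 0.171, 6.81 and 0 CPM with C1Q and C5, and at 11.4, 2.02, 0 and 0 CPM with IL-1β and IL-6. A single library of each of the latter 2 groups reached the range seen with TGF-β2.

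The log2 difference was 3.68 for *Inhba* (SE 1.30, unadjusted p = 0.0105, adjusted p = 1 by edgeR) and 3.45 for *Fst* (SE 1.42, unadjusted p = 0.0266, adjusted p = 1 by edgeR). TGF-β2 libraries brought *Fst* into this test, with 4 of them and 3 others over the limit of the filter (2.27 CPM). The p of *Fst* is therefore a description only. Over the alternatives *Fst* ran from 1.14 to 5.02. Against the 2 stimuli of the same plate index alone, *Inhba* had 2.73 (SE 1.40, unadjusted p = 0.0693, adjusted p = 1 by edgeR) and *Fst* 1.14 (SE 1.63, unadjusted p = 0.495, adjusted p = 1 by edgeR), with 0 members called. *Bmpr1a*, the third by p, had 29.9, 41.1, 165 and 63.6 CPM with TGF-β2. Replicate C was the highest of all ES-astrocyte libraries, and the others lay within the range of the other stimuli. Its log2 difference was 1.10 (SE 0.69, unadjusted p = 0.126, adjusted p = 1 by edgeR), and as low as 0.36 with a library left out. Of 31 members tested by edgeR 0 were called, beside 0% of 12557 genes, 2 had an unadjusted p under 0.05, and DESeq2 called 0 of 38, with 1 at an unadjusted p under 0.05. The median was 0.33, beside 0.07 over all tested genes. *Ltbp3*, which separated TGF-β2 from control, had a log2 difference of 0.64, with 3.22, 0.993, 3.22 and 5.02 CPM under IL-1α and TNF-α. Those 4 libraries, too, were all above the highest control (0.964 CPM), in a comparison where *Ltbp3* was not tested by edgeR.

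Of the 33 response genes 20 were tested here, 0 were called by edgeR and 5 had an unadjusted p under 0.05, beside 397 of all 12557 genes, with a median log2 difference of 1.18, and DESeq2 called 0 of 29 with 6 under 0.05. *Lox*, a collagen cross-linking enzyme, had 2.56 (SE 0.94, unadjusted p = 0.013, adjusted p = 1 by edgeR), *Tagln*, a smooth muscle actin-binding protein, 1.22 (SE 0.45, unadjusted p = 0.0137, adjusted p = 1 by edgeR), and the stress factor *Atf3* 4.40 (SE 1.63, unadjusted p = 0.0152, adjusted p = 1 by edgeR). The 52 further pathway genes gave 0 calls by edgeR, 0 with an unadjusted p under 0.05 and a median of 0.08 over 30 tested, and DESeq2 called 0 of 45 with 2 under 0.05.

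The mesenchyme marker list differed in level between the same groups. It holds 8 genes, of which *Acta2*, *Tagln*, *Col1a1*, *Col1a2* and *Col3a1* are also among the response genes. Its summed level was 808, 1106, 958 and 643 CPM in TGF-β2 replicates A to D. The group means were 879 ± 199 CPM with TGF-β2, 345 ± 219 with IL-1α and TNF-α, 455 ± 185 with C1Q and C5, and 378 ± 198 with IL-1β and IL-6 (SD, n = 4). In the controls it was 913 ± 462 CPM, with 1369, 1220, 680 and 381 CPM in replicates A to D. *Dcn* was the most abundant of the list with TGF-β2, at 385 CPM, and 2 of the 8 were at 0 there. Over the ES-astrocytes *Lum* and *Pdgfrb* were each found in 2 libraries. The part of mesenchyme marker content in the differences of *Inhba*, *Fst* and the response genes was not tested.

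The 3 stimuli without TGF-β2 were each compared with the same 4 controls in ES-astrocytes, so their results are not independent. With IL-1α and TNF-α 25 members were tested, 0 were called beside 0% of 10444 genes, and 0 had an unadjusted p under 0.05, while DESeq2 called 0 of 35 with 1 under 0.05. The smallest p belonged to *Tgfb2*, with 29.7, 7.61, 19.8 and 7.03 CPM, a log2 fold change of -0.90 (SE 0.79, unadjusted p = 0.278, adjusted p = 1 by edgeR). Replicates A and C were within the control range and B and D below it. The median was -0.20, beside -0.08 over all tested genes.

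With C1Q and C5 the smallest p was that of *Tgfb3*, a TGF-β ligand. It had 13.7, 9.14, 11.3 and 0 CPM in control replicates A to D and 0.675, 1.54, 0 and 0.309 CPM with C1Q and C5. All 4 stimulated libraries were far below control replicates A to C, but control replicate D had none. On the log2 scale the change was -3.59 (SE 1.83, unadjusted p = 0.074, adjusted p = 1 by edgeR). *Tgif1*, which also came to notice after its values were seen, had 16.6, 12.9, 17.2 and 9.43 CPM in controls and 0.675, 3.59, 0 and 5.87 CPM with C1Q and C5, a log2 fold change of -2.36 (SE 1.49, unadjusted p = 0.14, adjusted p = 1 by edgeR). Of 24 members tested 0 were called, beside 0% of 10865 genes, 0 had an unadjusted p under 0.05, and DESeq2 called 0 of 36 with 5 under 0.05. The groups of *Tgif1* did not overlap, which was so, with the stimulus lower, for 1 of 24 members and 0.985% of all tested genes. Its controls brought it into the test, with 4 of them and 2 stimulated libraries over the limit of the filter (1.74 CPM). That count, too, is a description only. The median was -0.08, beside -0.07 over all tested genes.

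With IL-1β and IL-6 *Id3* had 74.5, 229, 60.6 and 125 CPM. Replicate B lay within the control range and the other 3 below it. The log2 fold change was -0.97 (SE 0.56, unadjusted p = 0.111, adjusted p = 1 by edgeR), and -0.38 without control replicate A. Of 28 members tested 0 were called, beside 0% of 10240 genes, 0 had an unadjusted p under 0.05, and DESeq2 called 0 of 34 with 1 under 0.05. The median was -0.08, beside -0.07 over all tested genes.

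ES-motor neurons from the same 3 co-cultures were compared with their own 4 controls, which these comparisons also share. With IL-1α and TNF-α the BMP type II receptor *Bmpr2* had 23.7, 104, 121 and 121 CPM, against 294, 146, 327 and 233 CPM in control replicates A to D. All 4 stimulated libraries were below all 4 controls, and all 4 were shallow, with 102 counts of *Bmpr2* between them. This held for 1 of 12 tested members and 3.17% of all tested genes. On the log2 scale the change was -1.28 (SE 0.47, unadjusted p = 0.0127, adjusted p = 0.99 by edgeR), and no value could be had without the shallow libraries. Of 12 members tested 0 were called, beside 0% of 4479 genes, and 1 had an unadjusted p under 0.05, while DESeq2 called 0 of 28 with 1 under 0.05. The median was -0.25, beside 0.03 over all tested genes.

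With C1Q and C5 the activin type II receptor *Acvr2a* had 0, 8.77, 18.5 and 42 CPM, against 80.6, 38.7, 61.6 and 41.5 CPM in controls. Replicate D was level with the lowest controls and the others were below, replicate A being the library of 6557 counts. The log2 fold change was -1.27 (SE 0.60, unadjusted p = 0.0423, adjusted p = 0.997 by edgeR), and -1.16 without the shallow libraries. It ran from -2.09 to -0.95 with a library left out. Controls brought *Acvr2a* into the test, with 4 of them and 3 stimulated libraries over the limit of the filter (7.42 CPM). The p of *Acvr2a* is therefore a description only. Of 17 members tested 0 were called, beside 0% of 7348 genes, and 1 had an unadjusted p under 0.05, while DESeq2 called 0 of 31 with 1 under 0.05. The median was -0.29, beside -0.06 over all tested genes. Controls also brought *Bmpr1a*, *Bmpr2*, *Acvr1*, *Smad2*, *Smad4*, *Smurf2* and *Id4* into the test, so this median is a description only. The groups of *Smad1* did not overlap, with the stimulus lower, as in 1 of 17 members and 2.75% of all tested genes. Its controls brought it into the test, with 4 of them and 2 stimulated libraries over the limit of the filter (7.42 CPM), so the count is a description only. *Smad1* had 0, 5.58, 14.4 and 19.1 CPM against 22.6, 31.5, 50 and 24.8 CPM in controls. The 0 is that of replicate A, where 3 counts equal 203 CPM, and does not show a lower level.

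With IL-1β and IL-6 *Smad1* had the smallest p, at 52.9, 45.2, 85.2 and 26.8 CPM. Replicates A and C were above all controls and B and D within their range. Its fitted change on the log2 scale was 0.79 (SE 0.57, unadjusted p = 0.181, adjusted p = 1 by edgeR), and 1.36 without the shallow libraries. Of 20 members tested 0 were called, beside 0% of 8327 genes, and 0 had an unadjusted p under 0.05, while DESeq2 called 0 of 30 with 0 under 0.05. The median was -0.18, beside -0.01 over all tested genes. *Id3*, low with TGF-β2, had 213, 119, 70.4 and 43.3 CPM with IL-1α and TNF-α, 135, 77.3, 53.3 and 98.5 CPM with C1Q and C5, and 267, 0, 27.7 and 20.1 CPM with IL-1β and IL-6. With IL-1β and IL-6, the deep replicate C was below every control, and replicates B and D were shallow, with 3 counts equal to 33.9 CPM in B.

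The comparison of the cell types over all treatments was the only one in which edgeR called any of the 38 genes. The ligands *Tgfb2*, *Tgfb3* and *Inhba*, the extracellular regulators *Thbs1* and *Fst*, the receptor *Acvr2b* and the targets *Serpine2* and *Id3* were lower in ES-motor neurons, while none of the Smads and intracellular regulators was called. Without replicate D, however, *Smad3* was called at -4.39 (adjusted p = 0.039 by edgeR). In that fit its only ES-motor neuron counts were 2, with IL-1β and IL-6 in replicate A (0.127 CPM). A call of *Smad3* could thus only be lower. By edgeR 8 of 30 tested members (of 38) were called, all lower in ES-motor neurons, beside 14.9% of 13227 genes, which were 511 higher and 1461 lower. Of the 8, *Tgfb2*, *Tgfb3*, *Inhba*, *Thbs1* and *Fst* passed the filter through ES-astrocyte libraries, with too few ES-motor neuron libraries over its limit, so a call for them could only be lower. At an unadjusted p under 0.05 there were 12 members and 3762 genes in all. DESeq2 called 6 of 38 members, with 9 under 0.05, and 1839 of 14239 genes. Without replicate B of all groups edgeR called 5. The median log2 difference of tested members, as ES-motor neurons minus ES-astrocytes, was -0.36, beside -0.21 over all tested genes.

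Among ligands 3 of 4 tested were called lower in ES-motor neurons, with a median log2 difference of -5.33, beside calls for 14.9% of all tested genes. All 3 passed the filter through ES-astrocyte libraries and could only be called lower, so the count and the median are a description only. *Tgfb3* ranged from 0 over a median of 3.79 to 17.8 CPM in the 20 ES-astrocyte libraries, 15 of which had counts, and was at 0 in all 20 ES-motor neuron libraries. With 754 counts against 0 it was at least 139-fold lower over the group (3 counts allowed). The fitted value was -7.04 (SE 1.26, adjusted p = 9.54e-05 by edgeR), which is no bound. *Tgfb2* ranged from 0 over 20.7 to 55.9 CPM in ES-astrocytes, detected in 18 libraries, and had 16 counts in 4 of the ES-motor neuron libraries, where the median was 0 and the highest 37.3 CPM. Its log2 difference was -4.89 (SE 1.06, adjusted p = 0.000436 by edgeR), -6.74 without the shallow libraries and -7.22 without replicate A of all groups. Without replicate B *Tgfb3* had -4.91.

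*Inhba* ranged from 0 over 0.7 to 43.3 CPM in ES-astrocytes and was found in 11 of those libraries, with 457 counts against 3 in ES-motor neurons. Its log2 difference was -5.77 (SE 1.11, adjusted p = 0.000121 by edgeR). It was not called by DESeq2, at -1.39 where the median of all genes was 0.81, nor in a single fit of all 40 libraries, where its error could not be estimated. *Bmp4* had 111 counts in 4 ES-astrocyte libraries. It was at 0 in every ES-motor neuron library, which makes it at least 20.5-fold lower over the group, and 12.7-fold without C1Q and C5 replicate B. It was called with no filter on low counts, at -3.58 (adjusted p = 0.0332 by edgeR). *Bmp7*, found in 13 and 8 libraries, had a log2 difference of -0.68 (adjusted p = 0.728 by edgeR). *Tgfb1* had 4 counts in 3 ES-astrocyte libraries.

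Of the extracellular regulators 2 of 5 tested were called, *Thbs1* and *Fst*, which also passed the filter through ES-astrocyte libraries and could only be called lower. *Thbs1*, encoding the TGF-β activating matrix protein thrombospondin 1, ranged from 0 over 19.3 to 58.9 CPM in ES-astrocytes and was detected in 18 of these libraries. In ES-motor neurons it was found in 3 libraries, with a median of 0 and a highest value of 16.6 CPM. Its log2 difference was -6.32 (SE 1.02, adjusted p = 3.77e-06 by edgeR). *Fst* differed by -4.16 (SE 1.32, adjusted p = 0.0194 by edgeR), with 249 counts against 4. *Ltbp1*, *Ltbp3* and *Bambi* had log2 differences of -2.45, -0.84 and -0.46 and were not called. *Nog*, the gene of a BMP antagonist, was found in 13 and 3 libraries and was not tested by edgeR.

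Targets divided by gene. *Serpine2* ranged from 11.1 over 167 to 292 CPM in ES-astrocytes, where all 20 libraries had it, and from 0 over 4.68 to 33.9 CPM in ES-motor neurons. The ranges met only where ES-astrocytes with IL-1β and IL-6, replicate A, were low. Its log2 difference of -4.71 (SE 0.52, adjusted p = 1.46e-09 by edgeR) had the smallest p of all members. *Id3* was lower in ES-motor neurons at -1.40 (SE 0.34, adjusted p = 0.00164 by edgeR), with medians of 178 against 53.6 CPM. *Id2* (0.33) and *Id4* (0.71) had adjusted p of 0.148 and 0.141 by edgeR, and *Id1* (-0.90) of 0.174.

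Of 6 tested receptors 1 was called, *Acvr2b*, an activin type II receptor, at -1.23 (SE 0.41, adjusted p = 0.0258 by edgeR) with medians of 25.6 against 7.81 CPM. The BMP type I receptor *Acvr1* had 1.35 (adjusted p = 0.27 by edgeR). For *Acvr2a* the log2 difference was -0.02 (SE 0.31), for *Bmpr2* 0.23 (SE 0.28), for *Smad1* -0.07 (SE 0.28) and for *Smad4* -0.09 (SE 0.28), so that the fitted levels in the 2 cell types were close in these receptors and mediators. None of 5 Smads and none of 5 intracellular regulators was called with all libraries, with medians of -0.07 and 0.18. By edgeR 0 of these 10 had an unadjusted p under 0.05, and DESeq2 called none of them.

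Of the 52 further pathway genes 32 were tested, and edgeR called 3 higher in ES-motor neurons and 7 lower, beside 511 higher and 1461 lower of all 13227 genes (14.9%), with *Fstl1* at -3.07 and the fibrillin gene *Fbn2* at -5.44 lower and the BMP co-receptor gene *Rgmb* at 1.10 higher. Of the 33 response genes 21 were tested, with 12 called lower and 0 higher, with a median of -2.68 and *Acta2* at -7.18, *Tagln* at -6.39 and *Fn1* at -7.35. Markers of mesenchyme, which share genes with that list, had sums of 594 CPM for ES-astrocytes against 4.74 for ES-motor neurons, and progenitor markers sums of 564 and 18.3 CPM. Their part in the difference of ligands and regulators was not tested. The second index primer also differed between the cell types in every library and cannot be told apart from them.

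**Figure D3:**
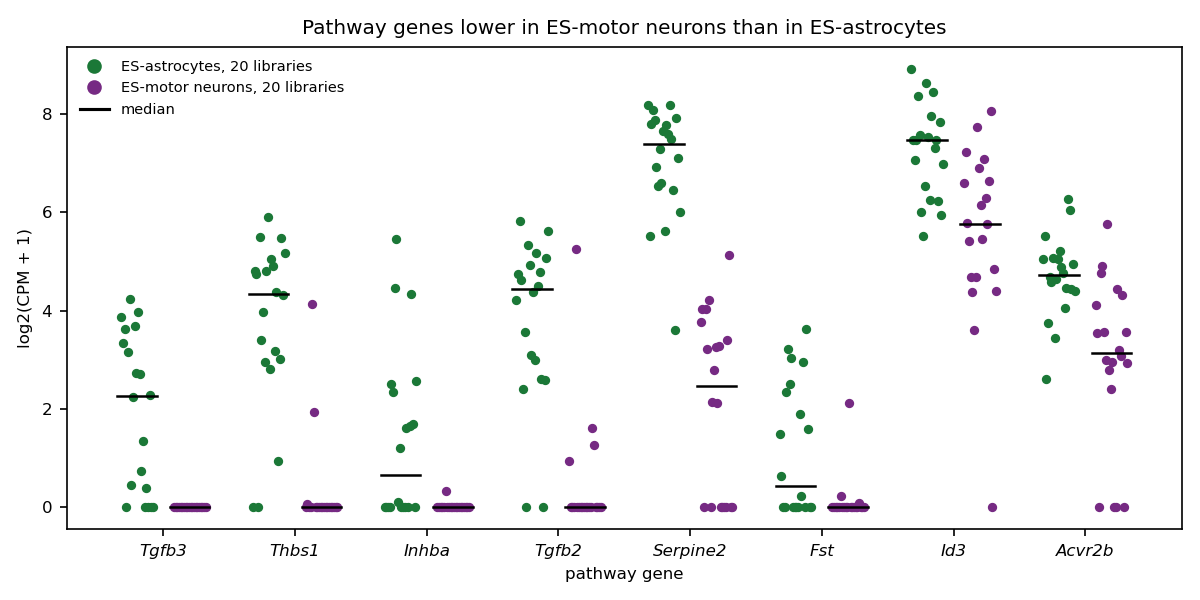
Levels of the 8 called members, as log2 of CPM plus 1, in the 20 libraries of each cell type, with points for libraries and lines at the medians. *Serpine2* (medians of 167 and 4.68 CPM in ES-astrocytes and ES-motor neurons), *Thbs1* (19.3 and 0) and *Tgfb2* (20.7 and 0) differ plainly in their medians, and the ranges of the cell types overlap or meet at 0 in all 8 genes.

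Some members share exonic bases with other annotated genes, and the strand setting of the counting was not given in the sources, so reads of the neighbour may be among their counts. By share, the largest overlaps were those of *Acvr2a* with *Orc4* on the opposite strand (446 bases, 7.8% of the exonic length) and of *Tgfb3* with *Gm48008* (257 bases, 7.6%). Those of *Tgfb3* with *Gm37804* (163 bases, 4.8%) and of *Bmpr1a* with *Gm17110* (290 bases, 4.6%) came next. For *Fst* it was 115 bases (2.5%), with *Gm47040*. *Inhba*, *Id3* and *Serpine2* have no such overlap in the annotation used.

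Promoter sequence was available for 27 of the 38 members from RefSeq (GRCm38.p6), as windows of 300 bases around gene starts annotated by RefSeq. These differ for some genes, such as *Id3* and *Bmpr1b*, from the starts in GENCODE, and some genes have several. They were searched on both strands for the Smad-binding letters CAGAC, for GGCGCC, a BMP Smad element, and for TGANTCA, an AP-1 element, motifs chosen after the values above were seen. Counted by gene, with a match in any of its windows, CAGAC was present in 13 of 27 members (48.1%) and in 53.2% of 27025 genes, GGCGCC in 11 (40.7%) and 13.4%, and TGANTCA in 1 (3.7%) and 8.97%. Counted by window, the shares were 47.2%, 33.3% and 2.78% of 36 for members, beside 49.6%, 11.9% and 7.81% of 32851 in all. The shares over all genes and windows were not matched to members in base composition. GGCGCC consists of G and C alone, so its shares are a description only. Promoters are shown for the genes whose groups did not overlap with TGF-β2 in either cell type and that had an entry, to let their sequence be compared, with matches on either strand in capitals. They lie at chr13:16011601-16011900 (*Inhba*, plus strand, no match), chr19:5740650-5740949 (*Ltbp3*, plus strand, 2 CAGAC, the latter overlapping the TGANTCA) and chr4:136143572-136143871 (*Id3*, plus strand, 2 CAGAC). *Fst* had no entry. A match describes letters in the window and is not evidence of binding.
Inhba: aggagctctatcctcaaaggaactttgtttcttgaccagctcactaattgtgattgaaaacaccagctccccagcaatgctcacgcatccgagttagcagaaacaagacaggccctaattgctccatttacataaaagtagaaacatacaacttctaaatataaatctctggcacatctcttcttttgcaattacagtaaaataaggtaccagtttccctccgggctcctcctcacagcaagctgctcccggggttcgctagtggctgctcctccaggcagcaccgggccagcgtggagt
Ltbp3: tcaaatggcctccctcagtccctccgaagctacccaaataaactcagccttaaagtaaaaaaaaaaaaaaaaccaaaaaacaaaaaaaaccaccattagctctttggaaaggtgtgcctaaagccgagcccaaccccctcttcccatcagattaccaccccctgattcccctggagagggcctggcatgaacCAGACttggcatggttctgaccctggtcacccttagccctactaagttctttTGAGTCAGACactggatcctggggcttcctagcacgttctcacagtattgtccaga
Id3: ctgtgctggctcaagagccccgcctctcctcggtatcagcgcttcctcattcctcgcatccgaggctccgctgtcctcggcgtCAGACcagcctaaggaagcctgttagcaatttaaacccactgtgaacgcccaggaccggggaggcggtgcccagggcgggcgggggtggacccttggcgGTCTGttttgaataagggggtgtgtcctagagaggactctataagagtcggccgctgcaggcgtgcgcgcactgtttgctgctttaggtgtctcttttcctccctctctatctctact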

How the data were processed

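Raw read counts per gene in 40 libraries were the values the authors deposited. Per the labels and methods, the authors mapped reads with STAR, and the submitters' notes also name DESeq2; STAR's version, the genome build, annotation, strand setting and counting step were not given in the sources. Gene identifiers were paired with GENCODE M21 names (55227 of 55487; unnamed genes held 0.117% of counts).

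Counts were tested with edgeR 4.0.16 (filterByExpr, TMM, robust quasi-likelihood F test; limma 3.58.1, R 4.3.3) in 11 comparisons, and with DESeq2 1.42.0 (alpha 0.1) as an alternative. Calls needed a log2 fold change over 1 in size and p, adjusted by Benjamini and Hochberg over all tested genes, not above 0.05. CPM used TMM factors over all 40 libraries. Tables were made with Python 3.11.15, pandas 2.3.3, numpy 2.4.6 and scipy 1.17.1, figures with matplotlib 3.10.9. The fitting steps were tested on simulated data. The criterion for false calls was changed to pool 3 draws after a single draw failed it, and the test between cell types called slightly too many genes there at high dispersion with shallow libraries.

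Values per library were given for called members, for the 5 members of smallest p in both comparisons of TGF-β2 with control and for *Smad7*, *Skil*, *Serpine2*, *Tgfbi*, *Id1*, *Id3* and *Tgfb2*, for the member of smallest p in each other comparison with control and in the interaction, for 3 members against the other stimuli, and for the 4 called members of largest difference between cell types; others named were chosen after their values were seen. Lists were further pathway genes, TGF-β response genes and markers of astrocytes, motor neurons, neurons, neural progenitors, mesenchyme or fibroblasts, endothelium, oligodendrocyte lineage, microglia and pluripotent cells. The members and lists were chosen with earlier results of these data known. Alternatives were DESeq2, RLE normalization, no minimum fold change, no or a stricter filter (1 CPM and 10 counts in 4 libraries), a fit of all 40 libraries, a replicate block, the index primer as a term, the stimuli of 1 plate index only for TGF-β2 against the others, libraries without the shallow ones, and each library left out. The replicate block by co-culture was chosen after seeing the data.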

Additional observations from a re-analysis of the deposited data

Results flagged for a closer look

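In 60 groups of 4 libraries, 9 had an extreme library whose distance from the nearest other was unusually large for the range of its group. Chance gives about 1 in 20 groups such a library where values vary freely. That rate does not apply to *Tgfbi* and *Tgfb2* below, where 1 library with counts against 3 at 0 always meets the criterion. The pattern was not tested further.

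In ES-astrocyte controls, replicate D stood high for *Smad7* at 44.6 CPM and for *Tgfbi* at 0.171 CPM, and replicate A for *Id3* at 484 CPM. In ES-motor neuron controls, replicate C stood low for *Serpine2* at 0 CPM, and replicate A high for *Tgfb2* at 0.906 CPM. With TGF-β2, ES-motor neuron replicate A stood high for *Tgfb2* at 37.3 CPM. Total counts stood high in ES-astrocytes with IL-1α and TNF-α, replicate A (14831839), in ES-motor neuron control replicate B (19717324) and in ES-motor neurons with TGF-β2, replicate B (12606121).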

How the results depend on the processing

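Of 495 values of the 31 named results under alternatives, 481 kept their direction. Member calls for TGF-β2 against control went from 0 to 1 by DESeq2 in ES-astrocytes (*Inhba*) and to 1 in ES-motor neurons (*Id3*); the cause was not tested. Between cell types the 8 member calls ranged from 5 (without replicate B) to 8 with a replicate letter left out; the cause was not tested.

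With the replicate block, the log2 fold change in TGF-β2 treated ES-astrocytes was 2.90 for *Smad7* and 0.72 for *Skil*, and with the index primer as a term 0.91 and 0.15. With a library left out, *Smad7* ran from -0.67 to 3.23, *Skil* from -0.44 to 0.30 and *Id1* from -0.16 to 0.49. The interaction of *Tgfb2* was -1.91 without the shallow libraries and ran from -1.77 to 9.65 with a library left out. The cause was not tested. The replicate block by co-culture, chosen after seeing the data, gave 9 calls between cell types, with *Id1* added at -1.43.

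Between cell types the median of all genes moved from -0.21 by edgeR to 0.81 by DESeq2. Same-letter pairs of libraries correlated over 0.1 in 3 of 32 cases between treatments and 1 of 20 between cell types of a co-culture. In TGF-β2 against control in ES-motor neurons all 4 pairs were above 0, from 0.05 to 0.14, and 4 of 4 libraries correlated best with their own letter, so whether the letters pair is unsettled. With the replicate block *Id3* had a log2 fold change of -2.01 there and was not called. Not run were a fit without the shallow libraries for ES-motor neurons with IL-1α and TNF-α, plate as a term, since it is confounded with the stimulus, and the index primer between cell types. *Ltbp3* had no value under the stricter filter. Depth limits ES-motor neurons most, where 3 counts amount to up to 203 CPM.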

Other observations

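In the other stimuli, further pathway and response genes gave 0 calls by edgeR against the shared controls. In ES-astrocytes, 1 of them had an unadjusted p under 0.05, the phosphatase gene *Ppm1a* with IL-1β and IL-6, at a log2 fold change of 1.14 (SE 0.48, unadjusted p = 0.0378, adjusted p = 1 by edgeR).

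Among these genes DESeq2 called 1 in all comparisons of the other stimuli, with IL-1β and IL-6 in ES-astrocytes: the collagen gene *Col1a2*, named after its values were seen. It had 4.61, 96.8, 30 and 0 CPM in control replicates A to D and 0, 0.606, 0.078 and 0 CPM with IL-1β and IL-6. Control replicate D had none, so the groups met, while the other 3 controls were above all stimulated libraries. The log2 fold change by DESeq2 was -7.39 (SE 1.93, adjusted p = 0.0344), and edgeR's filter left the gene out. In ES-motor neurons DESeq2 called 0 of these genes with the other stimuli, and 0 had an unadjusted p under 0.05 by either tool.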
